A study of Mus musculus with 30 samples.

Results

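The genes described here are 9 genes of resting, recirculating lymphocytes, Klf2, Bcl2, Ahnak, Emp3, S1pr1, Lef1, Tcf7, Il7r and Ccr7, out of 23013 gene rows in a table of 30 single-cell RNA libraries. All 9 were in the table. They were chosen on their values by disease state in these same libraries, lymph node and blood in particular, so their differences between states are given as a description with no test. For these 9 genes, tests are given only for lymph node against blood and for T-marker against B-marker barcodes, which are other contrasts than the one by state, although they use libraries that the choice used and earlier results were known. Tests by state are given for other genes only.

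The libraries were made by Seq-Well, in which cells and barcoded beads share small wells, from 8 organs of 8 male DBA1/J mice aged 8 to 12 weeks. In 4 of the mice (S1, S2, S6 and S7) collagen-induced arthritis (CIA) had been started with 100 µg of bovine collagen II in complete Freund's adjuvant at the base of the tail, and a boost in incomplete adjuvant followed on day 20. The arthritis score was 8 for both S1 and S2, 3 to 4 for S6 and 3 for S7. The other 4 (H3, H4, H6 and H7) had been injected in a similar way with phosphate-buffered saline, had no arthritis and scored 0. By the study's methods, mice were killed at a summed score of 8 to 12 or after 60 days of immunization. Lymph node came from the 4 healthy mice and from S1, S2 and S7, and blood from the 4 healthy mice and from S2, S6 and S7. Each other organ came from 1 healthy and 1 CIA mouse. Organs had been frozen and thawed, red cells had been lysed, and blood had passed a density gradient for mononuclear cells, so these libraries are not a sample of all blood cells.

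The deposited values were smoothed over neighbouring barcodes, so their sums are called units and not counts. Units were added up per mouse and organ and expressed as a per-million value (UPM), with 1 set of scaling factors over all 26 sums. Libraries held 27 to 934 barcodes and 217494 to 7886790 units, and the smallest was the blood library of H3. A total of 13 barcode sequences occurred in more than 1 library. The library titles carry a suffix, CIA (13 libraries) or 2CIA (17 libraries), which is not the state of the mouse. The labels do not say what it stands for, and libraries were compared within it on the assumption that it could mark a batch. Some titles, none of them of lymph node, blood or thymus, also carry a number in brackets, and the column names carry a further tag, neither of which is explained or was used.

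A lymphocyte that has not met its antigen circulates between blood and lymphoid organs. The transcription factor Klf2 keeps it in a resting state and is needed for expression of S1pr1, the receptor for sphingosine 1-phosphate by which lymphocytes leave thymus and lymph node. Ccr7, a chemokine receptor, brings cells into lymph node, and Il7r, the receptor chain for interleukin 7, together with Bcl2, an inhibitor of cell death, sustains resting T cells. Tcf7 and Lef1 are related DNA-binding factors of the TCF/LEF family, used in thymocyte development and kept in resting T cells. Ahnak encodes a very large scaffold protein and Emp3 a small membrane protein, and neither is restricted to lymphocytes.

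Promoters are shown for the 4 genes that stood lower in lymph node of every CIA mouse than of any healthy mouse, Klf2, Bcl2, Ahnak and Emp3. Each sequence is the 250 bases before the start site in RefSeq's mouse promoter table (GRCm38.p6), on the strand of the gene. They lie at chr8:72318812-72319061 on the plus strand for Klf2, chr1:106714291-106714540 on the minus strand for Bcl2, chr19:8989034-8989283 on the plus strand for Ahnak and chr7:45921427-45921676 on the minus strand for Emp3. Capitals mark CACCC or, on the other strand, GGGTG, the core letters bound by KLF factors, and CTTTGA or, on the other strand, TCAAAG, the core of TCF/LEF sites. A search for GTAAACA, bound by FOXO factors, was made in the same way.
Klf2: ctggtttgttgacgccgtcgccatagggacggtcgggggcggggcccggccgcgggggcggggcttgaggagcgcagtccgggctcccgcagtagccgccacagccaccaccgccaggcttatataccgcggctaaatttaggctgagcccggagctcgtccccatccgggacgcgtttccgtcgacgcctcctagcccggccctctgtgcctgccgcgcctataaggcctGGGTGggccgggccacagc
Bcl2: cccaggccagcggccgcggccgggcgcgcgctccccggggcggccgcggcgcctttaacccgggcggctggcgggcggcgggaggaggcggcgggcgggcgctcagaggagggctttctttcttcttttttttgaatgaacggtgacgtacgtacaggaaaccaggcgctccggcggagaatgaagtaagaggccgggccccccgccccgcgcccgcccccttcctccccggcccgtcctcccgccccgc
Ahnak: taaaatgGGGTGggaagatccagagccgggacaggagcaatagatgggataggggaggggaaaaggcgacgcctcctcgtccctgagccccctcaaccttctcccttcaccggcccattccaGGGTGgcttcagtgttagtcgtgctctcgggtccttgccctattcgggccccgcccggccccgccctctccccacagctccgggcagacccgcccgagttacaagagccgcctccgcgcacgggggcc
Emp3: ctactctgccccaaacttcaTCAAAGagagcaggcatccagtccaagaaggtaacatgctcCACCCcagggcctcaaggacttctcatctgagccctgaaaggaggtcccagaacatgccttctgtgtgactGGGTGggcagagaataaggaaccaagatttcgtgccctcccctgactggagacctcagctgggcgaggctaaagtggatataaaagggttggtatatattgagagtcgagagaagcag

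The KLF letters stood once before Klf2, on 2 places before Ahnak and on 2 before Emp3, and were not in the window before Bcl2. They are common, since 51.3% of 27025 promoters of this length held them on either strand. The TCF/LEF letters were found only before Emp3 among these 4 windows, against 14.1% of all promoters, and the FOXO letters in none of the 4, against 3.09% of all. Of the 9 genes, 7 had a promoter in the table, and among the remaining 3 of these the KLF letters stood in the window of Lef1 on 3 places, in that of Tcf7 on 2 and not in that of Il7r. The window of Tcf7 (chr11:52283015-52283264) lies inside the span of the gene, and that of Il7r lies partly inside its gene. The windows of Klf2, Bcl2 and Ahnak were rich in CpG, with 29, 36 and 18 CpG pairs against a median of 6 over all promoters, and that of Emp3 held 3. A match of letters is a description of the sequence, not evidence of binding.

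In lymph node, Klf2 stood at 520.5 ± 183 UPM over the healthy animals (SD, n = 4) and 219 ± 84.4 over those with CIA (SD, n = 3). By mouse, Klf2 was at 324 UPM (H3), 438 (H4), 751 (H6) and 568.1 (H7), and at 122 (S1), 260.2 (S2) and 276 (S7). Every CIA mouse thus lay below every healthy mouse. The same held for Bcl2, which was at 99.5 UPM (H3), 116 (H4), 126 (H6) and 151 (H7), and at 44.6 (S1), 56.5 (S2) and 72.0 (S7).

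Ahnak was at 141 UPM (H3), 90.9 (H4), 173 (H6) and 135 (H7), and at 47.1 (S1), 28.7 (S2) and 60.4 (S7), the widest gap of the 9 genes in fold (2.63-fold lower in CIA on the log2(UPM + 10) scale). Those of Emp3 (2.38-fold) and Klf2 (2.34-fold) were close to it, and with 2CIA libraries alone Ahnak did not have the widest gap. Emp3 was at 109 UPM (H3), 121 (H4), 115 (H6) and 88.1 (H7), and at 29.7 (S1), 33.8 (S2) and 58.8 (S7). So 4 of the 9 genes did not overlap between states, all lower in CIA, where 2.56% of 4964 tested genes lay that way. Because the genes were chosen on this contrast, nothing is read from that count.

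The other 5 genes overlapped between states in lymph node. Tcf7 was at 343 UPM (H3), 239.5 (H4), 171 (H6) and 186 (H7), and at 155 (S1), 246 (S2) and 242 (S7), with wide overlap. Its partner Lef1 had a mean of 194 ± 98.8 UPM over the healthy animals (SD, n = 4) and 75.6 ± 26.9 over those with CIA (SD, n = 3), with S7 at 106 just above H3 at 105. Il7r was the only one of the 9 with a higher mean in CIA lymph node, at 194 ± 8.31 UPM (SD, n = 3) against 165 ± 38.4 (SD, n = 4), and its groups overlapped.

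The 2 trafficking receptors were among these. S1pr1 was at 133 to 228 UPM without arthritis against 120 to 187 in mice with CIA. Ccr7 was at 196 to 301 UPM in healthy mice, and at 152 (S1), 67.6 (S2) and 207 (S7). The log2 difference of CIA over healthy was -1.22 (SE 0.35) for Klf2, -0.98 (SE 0.32) for Bcl2, -1.40 (SE 0.35) for Ahnak and -1.25 (SE 0.33) for Emp3. It was -0.38 (SE 0.31) for S1pr1, -0.85 (SE 0.36) for Ccr7, -1.16 (SE 0.39) for Lef1, -0.10 (SE 0.32) for Tcf7 and 0.25 (SE 0.30) for Il7r. The difference of Tcf7 turned to 0.09 without H3 and 0.10 without S1, and that of Ccr7 was -0.42 without S2. The median over the 9 genes was -0.98, beside 0.07 over all genes tested, and nothing is read from this gap, since the genes were chosen on this contrast.

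**Figure D1:**
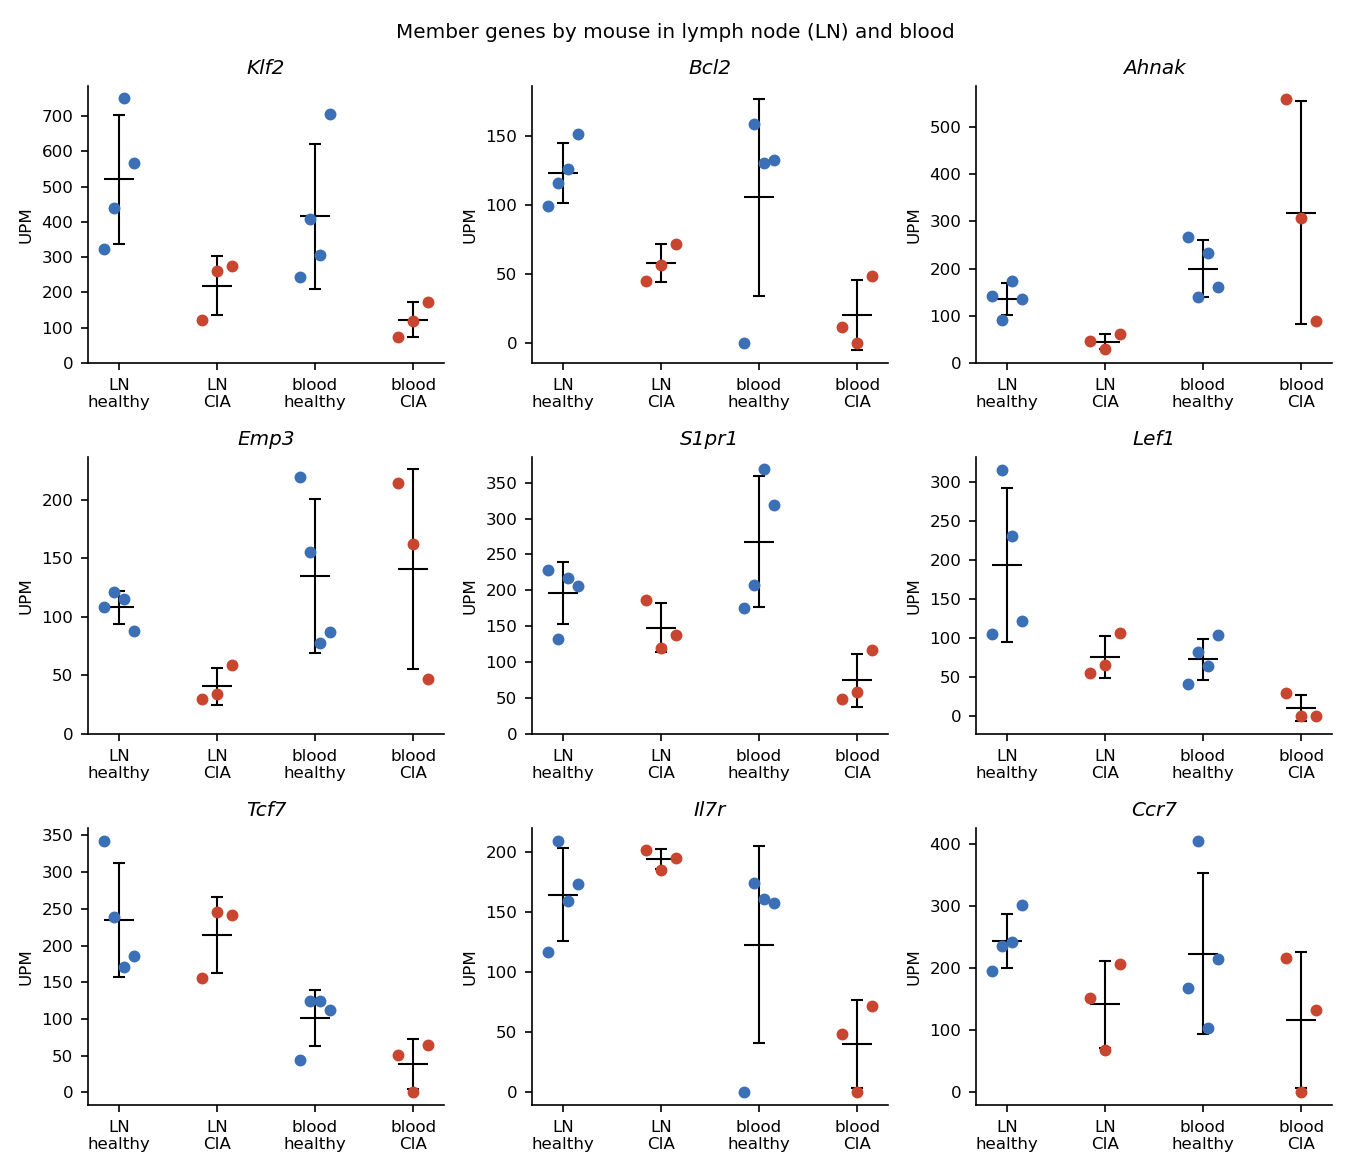
UPM of each of the 9 genes (vertical axes, linear) in lymph node (LN) and blood by state. A point is 1 mouse (blue healthy, red CIA), and the bar and whiskers are mean and SD of 4 healthy or 3 CIA mice. In lymph node the CIA mice lie below all healthy mice for Klf2, Bcl2, Ahnak and Emp3, and in blood for Klf2, S1pr1 and Lef1.

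Across all genes the lymph node contrast gave few calls. With limma, 1 of 4964 genes (0.0201%) passed a Benjamini-Hochberg adjusted p of 0.05, Ifi27l2a, an interferon-induced gene named here after its value was seen. In 4 lists of other genes none passed, and 0 to 2 genes of a list had an unadjusted p under 0.05, beside 4.09% of all genes tested. In the list of quiescence regulators 11 of 16 genes tested lay below 0 (median -0.20), in recirculation and motility 14 of 16 (median -0.41), in survival and IL-7 signalling 6 of 8 (median -0.17) and in TCF/LEF partners and targets 8 of 9 (median -0.66), beside a median of 0.07 over all genes. The smallest p among them belonged to Bcl11b, a T-lineage factor (log2 difference -0.98; limma adjusted p 0.979), and Itgb2, the beta chain of leukocyte integrins (-0.98; limma adjusted p 0.979). Of these, 3 of 16 motility genes, 1 of 9 TCF/LEF genes and 0 genes of either other list lay lower in every CIA mouse than in any healthy one, beside 2.56% of all genes tested.

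The lymph node values of Klf2 differed by the suffix of the library as well as by the state. H4 and S7 each had 1 lymph node library of either suffix. In H4, Klf2 was at 134 UPM in the 2CIA library and 625.1 in the CIA library, a 4.65-fold gap within 1 healthy mouse. In S7 it was at 143 UPM in the 2CIA library and 465 in the CIA library, a gap of 3.26-fold. Within the suffix 2CIA alone, Klf2 overlapped between states, with 324 UPM (H3) and 134 (H4) against 122 (S1), 260.2 (S2) and 143 (S7).

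Ahnak went opposite ways between suffixes, from 31.0 UPM in the 2CIA library to 128 in the CIA library of H4, and from 82.1 to 29.5 in S7. It overlapped between states within the suffix 2CIA too, with 141 UPM (H3) and 31.0 (H4) against 47.1 (S1), 28.7 (S2) and 82.1 (S7). Bcl2 and Emp3, 2 of the 9 genes, were apart there, beside 9.38% of 4893 genes over the same 5 libraries, and nothing is read from this count. Bcl2 was at 89.3 and 99.5 UPM in the 2 healthy libraries and at 44.6 to 84.6 in the 3 of CIA mice. Emp3 was at 109 and 133 UPM against 29.7 to 38.3, while its 1 CIA-mouse library of the suffix CIA, at 88.0, was level with the lowest of 3 healthy ones, at 88.1. With 2CIA libraries only, the log2 difference of CIA over healthy was -0.25 for Klf2, -0.37 for Ahnak and -0.51 for Bcl2. The part of the suffix in the differences by state was not tested.

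**Figure D2:**
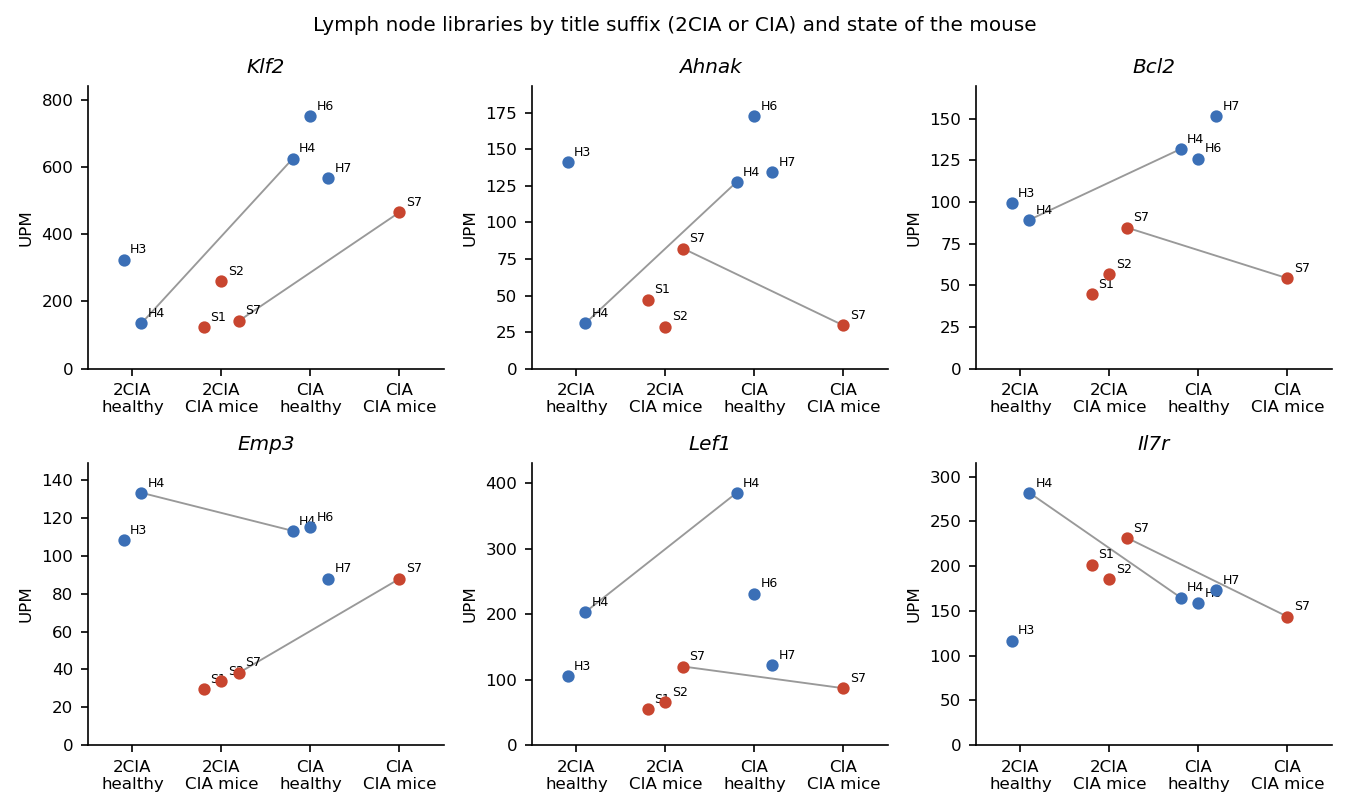
UPM (vertical axes, linear, from 0) of 6 of the genes in each lymph node library, by title suffix and state of the mouse. A point is 1 library, blue from healthy and red from CIA mice, and grey lines join the 2 libraries of H4 and of S7. Klf2 rises from 134 to 625.1 (H4) and from 143 to 465 (S7) between suffixes, whereas Emp3 within 2CIA stays at 109 to 133 without arthritis against 29.7 to 38.3 in mice with CIA.

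The share of T-marker barcodes also varied among lymph node libraries. A barcode was called T-marker when its 15 T-cell marker genes summed to at least 3 units and at least 3 times its 10 B-cell markers, and B-marker the other way round, and none of the 9 genes is a marker. Of lymph node barcodes 1390 were T-marker, 76 B-marker and 1039 neither. Of the B-marker barcodes, 43 had a marker ratio between 2 and 4, near the limit of 3, and the 76 held 50 distinct profiles. T-marker barcodes made up 23.6% of the library of S1 and 96.8% of the 2CIA library of H4. In such sums, fewer cells of a type and less RNA per cell cannot be told apart.

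Among T-marker barcodes alone, 3 of the 9 genes (Klf2, Bcl2 and Emp3) lay lower in each of 3 CIA mice than in any of 4 healthy mice, beside 2.19% of 4836 genes. Klf2 was at 304 to 755 UPM in healthy mice there, and at 48.6 (S1), 219.5 (S2) and 210.2 (S7). Bcl2 was at 96.1 to 129 UPM without arthritis against 33.6 to 79.6 in mice with CIA, and Emp3 at 80.2 to 150 against 41.1 to 56.5. Ahnak overlapped, since H4 stood at 36.8 UPM among 148 to 177 of the other healthy mice, against 23.7 to 58.3 in CIA mice. When a barcode went to the marker set with more units, Ahnak no longer overlapped (73.0 to 173 UPM against 30.8 to 60.3), so that 4 of the 9 genes were apart in T-marker barcodes, beside 2.34% of 4868 genes. Among the B-marker barcodes of that rule, 2 of the 9 were apart, beside 2.82% of 5392 genes. They were Ahnak, at 97.2 to 334 UPM against 14.8 to 87.7 with CIA, and Ccr7, at 311 to 527 against 113 to 249. Because the genes were chosen on state in these same libraries, nothing is read from any of these counts. Il7r in T-marker barcodes of the 3-fold rule was at 148 to 242 UPM without arthritis against 201 to 322 in mice with CIA.

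In blood, Klf2 was at 243 UPM (H3), 409 (H4), 306 (H6) and 706 (H7), and at 74.7 (S2), 120 (S6) and 174 (S7). S1pr1 was at 176 UPM (H3), 208 (H4), 369 (H6) and 318 (H7), and at 48.6 (S2), 58.6 (S6) and 116 (S7). Lef1 was at 40.5 to 103 UPM in healthy mice, at 28.8 (S2) and listed at 0 in both S6 and S7. These were the 3 of 9 genes whose groups did not overlap, all lower in CIA, where 7.29% of 4789 genes lay that way, and nothing is read from this count either. The blood sums of S6 and S7 were small, at 409744 and 607376 units, and that of S2 held 1854324. Healthy blood held 217494 units in H3 and 2135973 to 6756698 in the other mice. The part of these sizes in the values listed at 0 was not tested.

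The other 6 genes overlapped between states in blood. Bcl2 was listed at 0 (H3) and at 130.1 to 159 UPM in the other healthy mice, and it was at 11.7 (S2), listed at 0 (S6) and at 48.6 (S7). Il7r followed the same mice, listed at 0 in both H3 and S6, at 157 to 174 UPM in the other healthy mice, and at 48.6 (S2) and 71.6 (S7). Tcf7 was at 43.9 UPM (H3) and 112 to 124 in the other healthy mice, and at 51.3 (S2), listed at 0 (S6) and at 65.2 (S7).

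Ccr7 ran from 103 to 405 UPM in healthy blood, and stood at 217 (S2), was listed at 0 (S6) and stood at 133 (S7). The means of Ahnak and Emp3 were not lower in CIA blood, although S7 lay below every healthy mouse for both. Ahnak was at 139 to 267 UPM in healthy mice, at 560.0 (S2), 307 (S6) and 88.2 (S7). Emp3 was at 135 ± 66.1 UPM over the healthy animals (SD, n = 4) and 141 ± 85.4 over those with CIA (SD, n = 3). By mouse it was at 78.2 to 219 UPM without arthritis, and at 214 (S2), 162 (S6) and 47.3 (S7).

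The log2 difference of CIA over healthy blood was -1.64 (SE 0.59) for Klf2, -1.74 (SE 0.64) for S1pr1 and -2.33 (SE 1.01) for Lef1. The size for Lef1, listed at 0 in 2 of 3 CIA mice, hangs on the pseudocount, and was -4.49 with a pseudocount of 1. Over all genes tested the median was -0.47 with these factors and -0.10 with none beyond the library total, and it was 0.36 within libraries of the suffix 2CIA. For the 9 genes the median was -1.60, from which nothing is read, since the genes were chosen on this contrast. It was the value of Ccr7, whose difference was much smaller without S6, where Ccr7 was listed at 0. With limma 8 of 4789 genes (0.167%) were called in blood, none of them in the 4 lists, of which each had 1 or 2 genes at an unadjusted p under 0.05, beside 9.88% of all genes tested. Itgb7, an integrin chain (-2.82), and Dapl1, a gene of resting T cells (-2.81), had the smallest p among those listed, with a limma adjusted p of 0.399 for each.

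Cell makeup differed between these blood samples. The 15 T-cell markers summed to 1457 to 2022 UPM without arthritis against 228 to 619 in blood with CIA, and the 10 B-cell markers to 800 to 4761 and 822 to 2208. The 10 neutrophil markers summed to 1168 to 5911 UPM without arthritis against 3309 to 105938 in blood with CIA, and 9 monocyte and macrophage markers to 931 to 2251 and 2429 to 18743. The 7 erythroid markers, haemoglobin genes among them, summed to 39315 to 1183040 UPM in healthy blood and 44529 to 632264 in CIA blood, on a scale whose total the trimmed-mean factors move away from the per-million total. The part of cell makeup in the blood differences was not tested.

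Within B-marker barcodes of blood, 4 of the 9 genes, Klf2, Bcl2, S1pr1 and Il7r, lay lower in each of 3 CIA mice than in any of the 3 healthy mice with 10 or more such barcodes, beside 18.2% of 4939 genes. Lef1 and Tcf7, too low there to be tested, were listed at 0 in the 3 CIA mice and at 24.6 to 68.0 and 22.7 to 66.1 UPM in the 3 healthy ones. The CIA sums held 48 (S2), 28 (S6) and 60 (S7) barcodes, against 321 (H4), 102 (H6) and 390 (H7). The part of these numbers in the low values was not tested. When a barcode went to the marker set with more units, H3 entered with 14 barcodes and only S1pr1 of the 9 was apart (149 to 344 UPM in 4 healthy mice against 19.0 to 135), beside 7.65% of 4703 genes, while Klf2 was at 45.8 to 693 UPM against 89.1 to 209. With the 3-fold rule, Klf2 was at 381 UPM (H4), 355 (H6) and 693 (H7), and at 49.5 (S2), 75.7 (S6) and 221 (S7). S1pr1 was at 170.1 to 447 UPM without arthritis against 42.9 to 160 in mice with CIA. All 3 CIA blood libraries carried the suffix 2CIA, whereas H6 and H7 had CIA only, so suffix and state largely coincide here. In the 2CIA blood libraries alone Klf2 was at 243 UPM (H3) and 529 (H4), and S1pr1 at 176 and 283, both above the 3 CIA mice, beside 8.23% of 3987 genes that lay that way in the same 5 libraries, whereas Lef1 was at 40.5 (H3) and listed at 0 (H4). Since the genes were chosen on state in these same libraries, nothing is read from the counts within blood B-marker barcodes or within 2CIA.

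Lymph node was then compared with blood of the same mouse in the 6 mice that had both, a contrast other than the one by state. It reads the same lymph node and blood values on which the genes were chosen, so its p-values for the 9 genes are not independent evidence. Tcf7 and Lef1 were higher in lymph node, each in 6 of 6 mice. Tcf7 was at 238 ± 60.5 UPM in lymph node and 86.9 ± 37.5 in blood (SD, n = 6), which is 1.42 as a log2 difference (SE 0.41; limma adjusted p 0.0303). Lef1 was at 158 ± 95.5 UPM in lymph node and 53.1 ± 37.5 in blood (SD, n = 6), which is 1.57 as a log2 difference (SE 0.48; limma adjusted p 0.0371). These were 2 of the 9 genes, beside 8.1% of 5072 genes called higher in lymph node. None of the 9 was called lower, beside 1.89%.

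Both calls were close to the threshold. Leaving out 1 mouse at a time kept Lef1 under 0.05 in 2 of 6 fits (without H3 or H7) and Tcf7 in 2 of 6 (without H6 or H7), with limma adjusted p up to 0.127 and 0.0860. In the 4 healthy mice alone the difference was 1.24 for Lef1 (limma adjusted p 0.253) and 1.18 for Tcf7 (limma adjusted p 0.264). Within libraries of the suffix 2CIA the difference was 2.29 for Lef1 and 1.55 for Tcf7 (limma adjusted p 0.125 and 0.113). Within the suffix CIA it was 1.18 and 0.75 (limma adjusted p 0.154 and 0.313). Without the pairing by mouse the limma adjusted p was 0.0565 for Lef1 and 0.0193 for Tcf7. Of 17 alternative settings, 5 kept the call of Lef1 and 7 that of Tcf7, and all 17 kept both differences above 0. T-cell markers summed to 3434 to 6274 UPM in the lymph nodes and 551 to 2022 in the blood of these mice, and the part of this in both differences was not tested.

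The other 7 genes were not called between lymph node and blood. Il7r was higher in lymph node in 5 of 6 mice (log2 difference 1.18, SE 0.47; limma adjusted p 0.101), and its difference fell to -0.07 within libraries of the suffix CIA. Ahnak was lower in lymph node in every one of the 6 mice, at 105 ± 54.4 UPM against 241 ± 169 in blood (SD, n = 6; log2 difference -1.08, SE 0.45; limma adjusted p 0.122). That difference was -0.51 without S2, -2.17 within the suffix 2CIA (limma adjusted p 0.0228) and -0.05 within the suffix CIA (limma adjusted p 0.961). The difference was 0.63 (SE 0.36) for Klf2, 0.88 (SE 0.51) for Bcl2 and -0.48 (SE 0.45) for Emp3. The differences of the trafficking receptors were smaller than their SE, at -0.03 (SE 0.39) for S1pr1 and 0.02 (SE 0.40) for Ccr7, with means of 174 and 208 UPM in lymph node and 206 and 207 in blood.

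**Figure D3:**
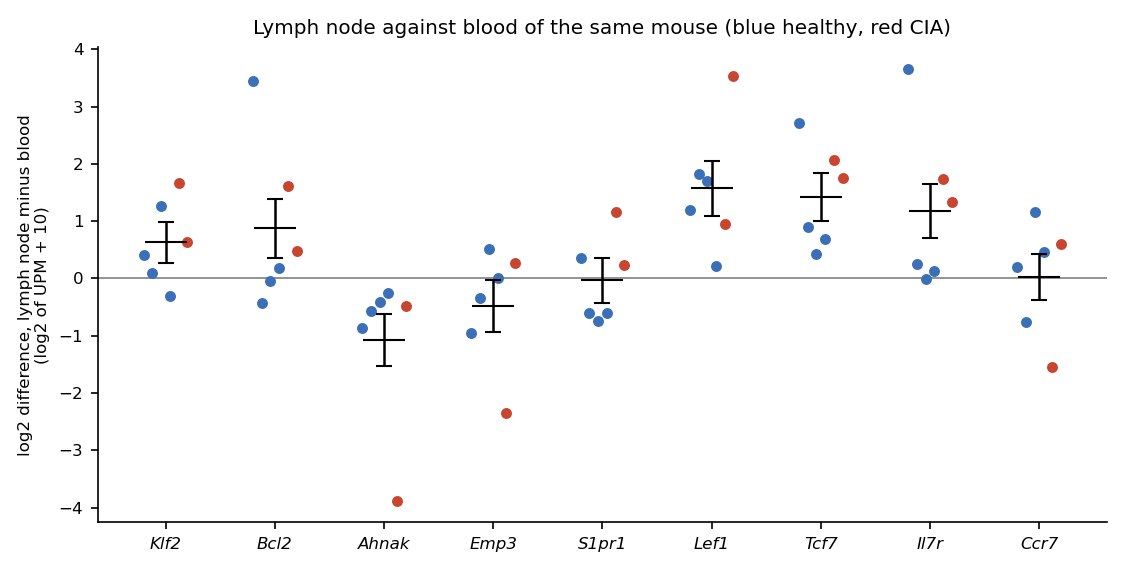
Log2 difference of lymph node minus blood, on log2(UPM + 10), for each gene (vertical axis) in the 6 mice with both organs. Points are mice (blue healthy, red CIA), and black bars are the fitted mean and its SE. For Tcf7, at 1.42, and Lef1, at 1.57, all 6 mice lie above 0, and for Ahnak, at -1.08, all lie below it.

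Of the 4 lists of other genes, TCF/LEF partners and targets had 3 of 9 genes called higher in lymph node, beside 8.1% of all genes tested, and none called lower, beside 1.89%. They were Dapl1 (log2 difference 2.71; limma adjusted p 0.000282), Bcl11b (2.04; limma adjusted p 0.0105) and Igfbp4, which encodes an insulin-like growth factor binding protein (1.96; limma adjusted p 0.0449). The list's median was 0.80, beside 0.22 over all genes. The lists of quiescence regulators, of recirculation and motility and of survival and IL-7 signalling had 0 calls among 16, 17 and 9 genes tested, with 1, 2 and 2 of them at an unadjusted p under 0.05, beside 24.96% of all genes tested.

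The T-marker and B-marker barcodes of lymph node were compared next, to see which lymphocytes carried the genes. With the 3-fold rule only H7, S1 and S7 had at least 10 barcodes of each kind, and these sums were scaled among themselves. Tcf7 was called higher in T-marker barcodes, at 283 UPM (H7), 186 (S1) and 340 (S7) against listed at 0, 93.4 and 56.0 in B-marker barcodes (log2 difference 2.73, SE 0.80; limma adjusted p 0.0471). This call rested on single mice and settings, since the limma adjusted p was 0.854 without H7, 0.443 without S7 and 0.222 without the pairing by mouse. Tcf7 was the only one of the 9, beside 1.07% of 5318 genes called higher. Il7r (2.22; limma adjusted p 0.0969) and Lef1 (2.40; limma adjusted p 0.271) were not called. Nor was Klf2 (-0.89, SE 0.54; limma adjusted p 0.52), which was lower in T-marker barcodes in each of the 3 mice. It was at 309 ± 295 UPM in T-marker and 471 ± 308 in B-marker barcodes (SD, n = 3).

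When a barcode was instead assigned to the marker set with more units, all 7 mice had 15 to 153 B-marker and 171 to 488 T-marker barcodes. Then 3 of the 9 genes, Tcf7, Il7r and Lef1, were called higher with T markers, beside 8.42% of 5288 genes. Il7r was at 215 ± 39.9 UPM in T-marker and 66.0 ± 42.3 in B-marker barcodes (SD, n = 7), higher in 7 of 7 mice (log2 difference 1.86, SE 0.35; limma adjusted p 0.000126). Tcf7 was at 278 ± 82.6 against 83.6 ± 48.0 UPM (SD, n = 7), also in 7 of 7 mice (1.76, SE 0.32; limma adjusted p 7.01e-05). Lef1 was at 168 ± 106 against 57.5 ± 54.3 UPM (SD, n = 7), in 6 of 7 mice (1.78, SE 0.42; limma adjusted p 0.00278). Leaving out any of the 7 mice kept all 3 calls. Without the pairing by mouse the limma adjusted p was 0.0155 for Il7r, 0.00486 for Tcf7 and 0.0706 for Lef1. Within the suffix 2CIA it was 0.0021 for Il7r, 6.74e-05 for Tcf7 and 0.127 for Lef1, and within the suffix CIA none of the 3 was called (0.0866, 0.0983 and 0.0629).

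The other 6 genes were not called either way between the 2 kinds of barcode. Ccr7 was lower in T-marker barcodes in every one of 7 mice, at 204 ± 70.3 UPM against 313 ± 128 (SD, n = 7; log2 difference -0.57, SE 0.25; limma adjusted p 0.137). S1pr1 was higher in them in 7 of 7 mice, at 203 ± 52.3 UPM against 125 ± 64.1 (SD, n = 7; 0.76, SE 0.30; limma adjusted p 0.0913). Klf2 was nearly level by this rule, unlike by the 3-fold rule, at 427 ± 240 and 411 ± 164 UPM (SD, n = 7), and so were Ahnak, at 106 and 113, and Bcl2, at 103 and 108, with log2 differences of -0.05 for Klf2, -0.02 for Ahnak and 0.20 for Bcl2. Among listed genes the call with the smallest p was Dapl1 (2.28; limma adjusted p 3.54e-11). Slfn2, a gene of T-cell quiescence (1.46), Bcl11b (1.39) and the co-receptors Cd28 (1.52) and Cd27 (1.52) were also called higher, and Cxcr4, a chemokine receptor, lower (-0.98), with limma adjusted p, in that order, of 0.00665, 0.00819, 0.0261, 0.0352 and 0.00266. These were 1 of 16 quiescence regulators, 2 of 9 genes each of survival and of TCF/LEF partners, and, lower, 1 of 18 motility genes, beside 8.42% of all genes called higher and 1.59% called lower. Since smoothing adds neighbouring cells to each barcode, neither kind of barcode is a pure cell type.

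**Figure D4:**
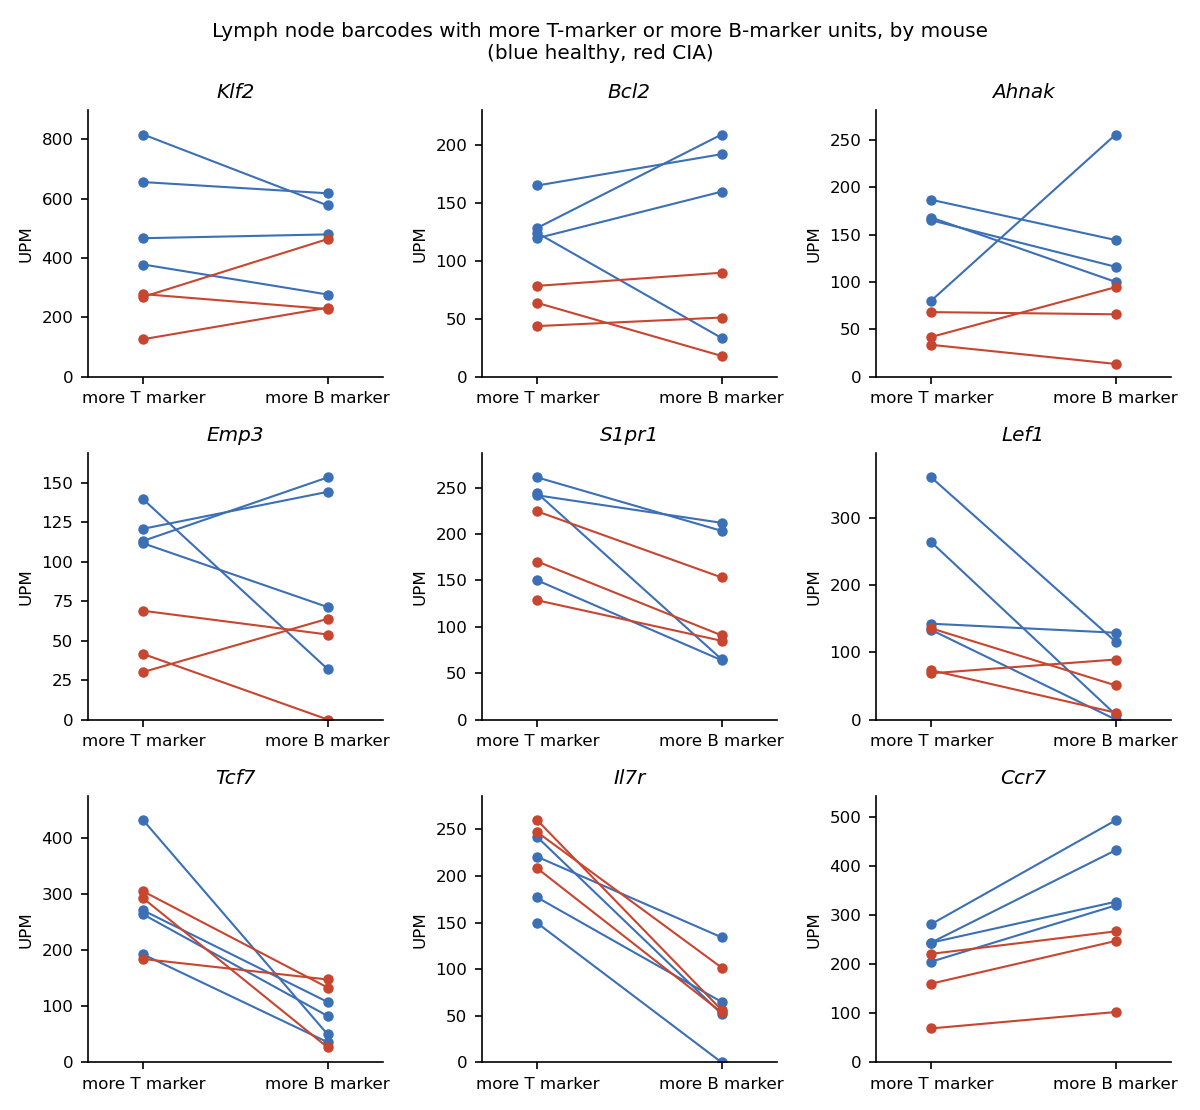
UPM of each gene (vertical axes, linear, from 0) in lymph node barcodes with more T-marker or more B-marker units. A line joins the 2 values of 1 mouse (blue healthy, red CIA, 7 mice). Il7r and Tcf7 fall from T to B in all 7 mice and Lef1 in 6, whereas Ccr7 rises in all 7.

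Over the 8 organs the 9 genes fell into different patterns. Tcf7 was highest in thymus, where developing T cells predominate, at 921 UPM (H6) and 628 (S1), against 155 to 343 in lymph nodes, 45.6 and 59.1 in spleen and values listed at 0 in lung. Lef1 was at 118 and 84.0 UPM in thymus, within the range of lymph node. The receptors of recirculation were nearly absent from thymus, with S1pr1 at 5.94 UPM (H6) and listed at 0 (S1), and Ccr7 at 7.73 and 13.0. All 8 thymocyte markers were above 0 in both thymus samples, and the T-cell markers summed to 13546 and 11380 UPM there. Klf2 was at 116 and 118 UPM in thymus, under every healthy lymph node.

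Spleen held Klf2 at 437 UPM (H6) and 596 (S1), so that the CIA mouse was not the lower one there. S1pr1 went from 207 UPM in H6 to 50.3 in S1 spleen, and Ccr7 from 129 to 62.8. Neutrophil markers summed to 4203 UPM in the spleen of H6 and 105301 in that of S1. Both spleen and thymus came from a single mouse of either state, and the healthy library carried the suffix CIA and the other 2CIA, so that suffix, mouse and state cannot be told apart.

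Ahnak was highest outside lymphoid organs, at 1221 and 798 UPM in skin, 957 and 994 in joint and 683 and 607 in lung, and lowest in thymus, at 19.0 and 21.1. Emp3 had its highest values in muscle of S1 (434 UPM) and joint of S1 (367). Bcl2, Lef1, Tcf7 and Ccr7 were at most 34.7 UPM or listed at 0 in lung, joint and skin. In muscle Ccr7 was at 217 UPM (H6) and 22.5 (S1), and the B-cell markers summed to 1177 UPM (H6) and 215 (S1). Klf2 was at 291 and 373 UPM in joint and 369 and 361 in muscle. B-marker barcodes made up 49.2% of the joint library of H3 and 40.7% of the muscle library of S1, where none was T-marker, and T-marker and B-marker barcodes made up 29.2% and 18.8% of the muscle library of H6. The part of lymphocytes in the Klf2 values of these organs was not tested.

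**Figure D5:**
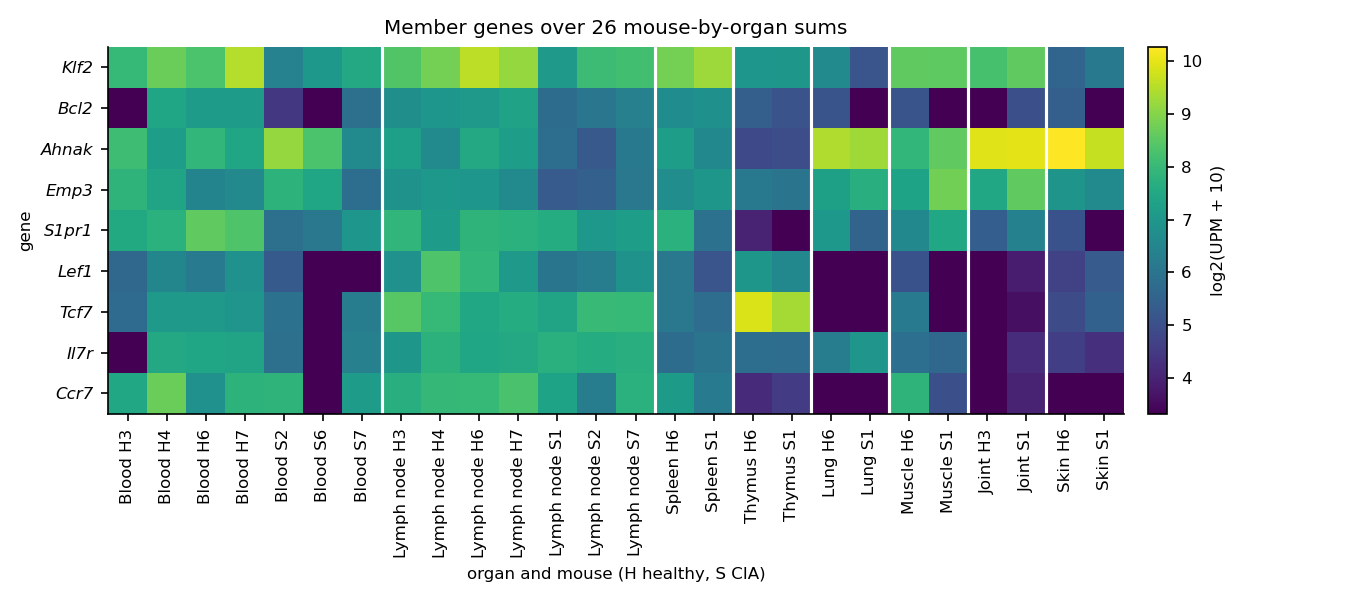
Level of each gene (rows) in every mouse and organ (columns, 26 sums), coloured by log2(UPM + 10). H marks healthy and S CIA mice, and white lines part the organs. Tcf7 peaks in thymus at 921 and 628 UPM, Ahnak in skin and joint, and S1pr1 and Ccr7 are near 0 in thymus.

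Over the 26 sums, which share mice, libraries and scaling, Pearson's r of log2(UPM + 10) was 0.87 between Lef1 and Tcf7, 0.71 between Ahnak and Emp3, 0.68 between S1pr1 and Ccr7 and 0.63 between Klf2 and S1pr1, and -0.83 between Ahnak and Tcf7. Among 5481 other genes the 2 most like Tcf7 were Cd3g (r = 0.94) and Trbc1 (r = 0.93), and those most like Lef1 were Cd3e (r = 0.94) and Skap1 (r = 0.93), of which Cd3g, Cd3e and Trbc1 encode parts of the T-cell receptor complex. Bcl2 was most like Gimap8 and Dennd2d (r = 0.87 for both), Ccr7 most like Sipa1 (r = 0.91) and Gimap3 (r = 0.89), and Il7r most like Dock10 (r = 0.81) and the gene with Entrez number 620771 (r = 0.79). Ahnak was most like S100a10 (r = 0.91) and Vim (r = 0.88), and Emp3 most like Myadm and S100a4 (r = 0.78 for both). Klf2 was most like Fryl (r = 0.79) and Esyt1 (r = 0.77), and S1pr1 most like H2-Q10 (r = 0.85) and H2-DMa (r = 0.84), genes of antigen presentation. These are descriptions over sums of unequal kind.

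Some values are uncertain from the position of the genes. Tcf7 (chr11:52246527-52283383) overlaps Skp1 by 332 bases, and Skp1 held 14216 units over all libraries against 18482 for Tcf7, so reads from the shared end could have been counted for either gene. Within Bcl2 (chr1:106538176-106714290) lie Gm37053, which held 14 units, and Mir3473f, with 0 units.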

How the data were processed

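Seq-Well libraries of 8 organs were analysed from the pilot matrix of mouse organs. By the study's methods, the authors demultiplexed reads with bcl2fastq and Picard, aligned them to GRCm38 with STAR, counted molecular identifiers with the Drop-seq tools, dropped poor cells by read, transcript, gene and mitochondrial limits, and then averaged out noise by k-nearest-neighbour smoothing (k of 12). GEO's processing notes name GRCh38 and mm9 as builds instead. The deposited values therefore behave as a signal, whole numbers summed over neighbours: the 8282 barcodes held 4590 distinct profiles, and column totals ran from 4373 to 36435. No depth, counting interval or floor was derived from them, and a 0 is given as listed at 0.

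Entrez rows were matched to symbols in a RefSeq gene table of GRCm38.p6 (21404 of 23013). Units were summed per mouse and organ and scaled to UPM by unweighted trimmed means of log ratios over 26 sums, which dropped 30% of the ratios and 5% of the levels from either end. Genes averaging 25 UPM or more were fitted with limma 3.58.1 in R 4.3.3 on log2(UPM + 10), with a mean-variance trend, two-sided, and Benjamini-Hochberg adjustment over all genes tested. The pseudocount shrinks log2 differences of weakly detected genes. Lymph node and blood were fitted by state alone, and lymph node against blood and T-marker against B-marker barcodes with the mouse as a block, since both come from 1 animal. Deviations of lymph node and blood of a mouse correlated at -0.13 to 0.18. The mice are separate animals, but libraries of 1 mouse were added up. The study tested the pilot cells of each organ with Monocle, which was not followed, because barcodes are not replicates. The fits were tested on simulated data.

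The 9 genes, the gene lists and the tests were chosen with earlier results of these data known. Of the listed genes Ccl19, Ccl21a and Cxcl13 could not be matched to the table. Other listed genes were named by a rule: those called in a contrast, up to 5 per direction by smallest p, or the 2 with the smallest p where none was called, and per gene the 2 most alike. Alternatives covered scaling, pseudocount, filter, trend, mice left out, suffix, pairing and barcode rule.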

Additional observations from a re-analysis of the deposited data

Results flagged for a closer look

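Of 36 groups of mice checked for a value far from the others, 3 stood out, where chance alone would be expected to mark about 1 in 20. Il7r was listed at 0 in blood of the healthy mouse H3, whereas the 3 other healthy mice lay at 157 to 174 UPM. Tcf7 stood at 43.9 UPM in the blood of H3, against 112 to 124 in the same 3 mice. The blood library of H3 held 27 barcodes and 217494 units, the smallest of the series. The Ahnak difference of lymph node minus blood was -3.88 on the log2 scale in S2, against -0.87 to -0.25 in the 5 other mice. In S2, Ahnak was at 28.7 UPM in lymph node and 560.0 in blood, and the neutrophil and the monocyte and macrophage markers summed to 105938 and 18743 UPM in that blood sample, the highest of the 7 blood sums for both. Without S2, the mean difference of Ahnak stayed below 0 and was not called.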

How the results depend on the processing

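The number of genes called by state was small in all settings run, and both it and the number called between organs moved with the settings, for causes that were not tested unless named. In lymph node by state (1 gene as reported) limma called 8 without the filter on low values, 3 with the suffix 2CIA alone, 0 without a mean-variance trend (224 at an unadjusted p under 0.05), and 0 to 7 without 1 mouse, with 7 without H3 and 0 without H6 or S7 (173 and 155 at an unadjusted p under 0.05). In blood by state (8 as reported) it called 16 with the total alone scaled, 13 with median-of-ratios scaling, 25 without the filter, 3 with factors from blood alone (chosen after seeing the data), 23 when libraries of 1 mouse were not added up, 0 both without a trend and at a pseudocount of 1 (548 and 396 at an unadjusted p under 0.05), and 0 to 16 without 1 mouse, with 0 without S2 (869 at an unadjusted p under 0.05), 2 without H3, 4 without S7 and 16 without H4. With the mouse number as a replicate block, blood gave 0 calls (1140 at an unadjusted p under 0.05), but healthy and CIA mice of 1 number are different animals, and the deviations of numbers 6 and 7 correlated at 0.23 and -0.13. No paired analysis was possible for lymph node by state, because its states share only the number 7.

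Between lymph node and blood (507 as reported) limma called 12 with a pseudocount of 1, 91 without a trend, 241 and 36 within the suffixes 2CIA and CIA, 10 in healthy mice alone (fewer samples), and 91 to 645 without 1 mouse, with 91 without H4, 123 without S2, 157 without S7 and 297 without H7. Without the pairing the limma adjusted p of Lef1 was 0.0565, and that of Tcf7 between T-marker and B-marker barcodes 0.222, and with a marker ratio of 1 that of Lef1 was 0.0706 (chosen after seeing the data). These were the calls among the 9 genes that needed the pairing. Between T-marker and B-marker barcodes (72 as reported) it called 38 with the total alone scaled, 45 with median-of-ratios scaling, 18 without the filter, 0 without a trend (511 at an unadjusted p under 0.05), 13 with no replicate block, 529 with a marker ratio of 1, 230 and 139 with that ratio within 2CIA and CIA (chosen after seeing the data), and 11 to 59 without 1 of the 3 mice, with 11 without H7 and 18 without S1. A marker ratio of 10 left 0 mice and the suffix 2CIA left 1, so these were not run.

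Among tested differences, directions turned only where there had been no call. Between lymph node and blood, S1pr1 was at 0.20 with the total alone scaled and 0.26 within 2CIA, Ccr7 at -0.12 with median-of-ratios scaling and -0.67 within 2CIA, Klf2 at -0.11 within 2CIA, and Bcl2 and Il7r at -0.14 and -0.066 within CIA. Without 1 mouse, Ccr7 ran from -0.21 to 0.33 and S1pr1 from -0.27 to 0.11. Between T-marker and B-marker barcodes, Bcl2 was at -0.037 with the total alone scaled and -0.31 within CIA, Klf2 and Bcl2 were at 0.20 and -0.55 with a ratio of 1 within CIA, and Ahnak ran from -0.92 to 0.42 without 1 mouse. By state, where no test was made, Tcf7 in lymph node turned to 0.09 and 0.10 without H3 and S1. In blood Il7r turned to 0.39 within 2CIA, Ahnak to -0.21 without S2 or with the number as a block and -0.07 within 2CIA, and Emp3, at -0.04 as reported, reached 0.55 without S7. Without S6 the blood differences of Ccr7, Il7r and Tcf7 were -0.21, -0.30 and -0.62. Further, 6 differences of the 9 genes moved by more than the spread between mice: Klf2, Bcl2 and Ahnak in lymph node with 2CIA alone (-0.25, -0.51 and -0.37), S1pr1 in blood with 2CIA alone (-1.17), and Lef1 in blood with a pseudocount of 1 (-4.49) or the number as a block (-3.20).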
